A study of Rattus norvegicus with 12 samples.

Results

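Fibroblast growth factor (FGF) signalling genes were compared between the hippocampi of bred High Responder (bHR) and bred Low Responder (bLR) rats. The set comprised secreted FGF ligands, intracellular FGF homologous factors, FGF receptors, genes of the feedback and transcriptional response, and adaptor or membrane partners, listed by gene symbol. Of 34 listed genes, 31 were measured, each by 1 probe, among 21407 gene symbols on the array. The deposited symbol matched directly for 28, and *Flrt1*, *Fgfbp3* and *Il17rd* were matched through an older symbol. *Fgf18*, *Fgfr1* and *Etv5* matched no probe by symbol or synonym and were not analysed here.

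The bHR and bLR lines were selectively bred for high or low locomotor response to a new environment. The bHR group comprised 6 male rats of generation 15 aged 14 days, and the bLR group comprised 6 male rats of the same generation and age. Whole hippocampus was dissected from each rat, and its total RNA was hybridised to 1 Illumina RatRef-12 array, so that n = 6 per line and this number limits the precision. The 12 arrays hold no rats of an unselected line, so a difference shows only how the lines stand to each other. In whole tissue, fewer cells of a type and less RNA per cell cannot be told apart.

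Secreted FGFs bind tyrosine kinase receptors together with heparan sulfate, and the activated receptor recruits the adaptor FRS2, which starts the RAS-ERK kinase cascade. ERK signalling induces its own brakes, among them the Sprouty and Spred proteins and the phosphatase DUSP6, together with transcription factors of the ETV family, so these transcripts are widely used as readouts of pathway activity. In the hippocampus FGF signalling acts on progenitor proliferation, astrocytes and synapse formation, and *Fgf2* has been studied in these rat lines for its relation to anxiety-like behaviour. The FGF homologous factors share the FGF fold but are not secreted; they bind the intracellular tail of voltage-gated sodium channels.

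Array brightness differed between the lines. Mean probe signal was 453 to 488 units on 3 arrays, all of bHR rats (27, 29 and 39), and 750 to 1038 units on the other 9, from 3 bHR and 6 bLR rats. No bLR array was dim, so for those 3 arrays brightness and line cannot be told apart. On average rat 27 correlated least with the other arrays (0.987, against at least 0.992). Log2 signals were quantile normalised, and the median of all probes was 6.66. The 5 neuronal markers were bright, averaging 12.33 to 12.76 in bHR rats and 12.40 to 12.47 in bLR rats. The 6 choroid plexus markers, averaged in each rat, gave 6.70 to 9.19 in bHR rats and 7.97 to 8.91 in bLR rats.

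No FGF gene passed the test for a difference between the lines when p was adjusted over all probes. The limma test called 0 of the 31 genes at an adjusted p of 0.05, and the lowest adjusted p was 0.778, while it called 0.0888% of all 22523 probes. At an unadjusted p under 0.05 there was 1 gene of 31 (3.23%), against 6.02% of all probes. The ranges of the lines overlapped for every one of the 31 genes, as they did for all but 0.391% of all probes. In sign, 15 genes were higher and 16 lower in bHR, and the median difference was -0.0011 on the log2 scale, beside 0.0017 over all probes. The differences, bHR minus bLR, lay between -0.15 (*Fgf12*) and 0.24 (*Spred1*).

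**Figure D1:**
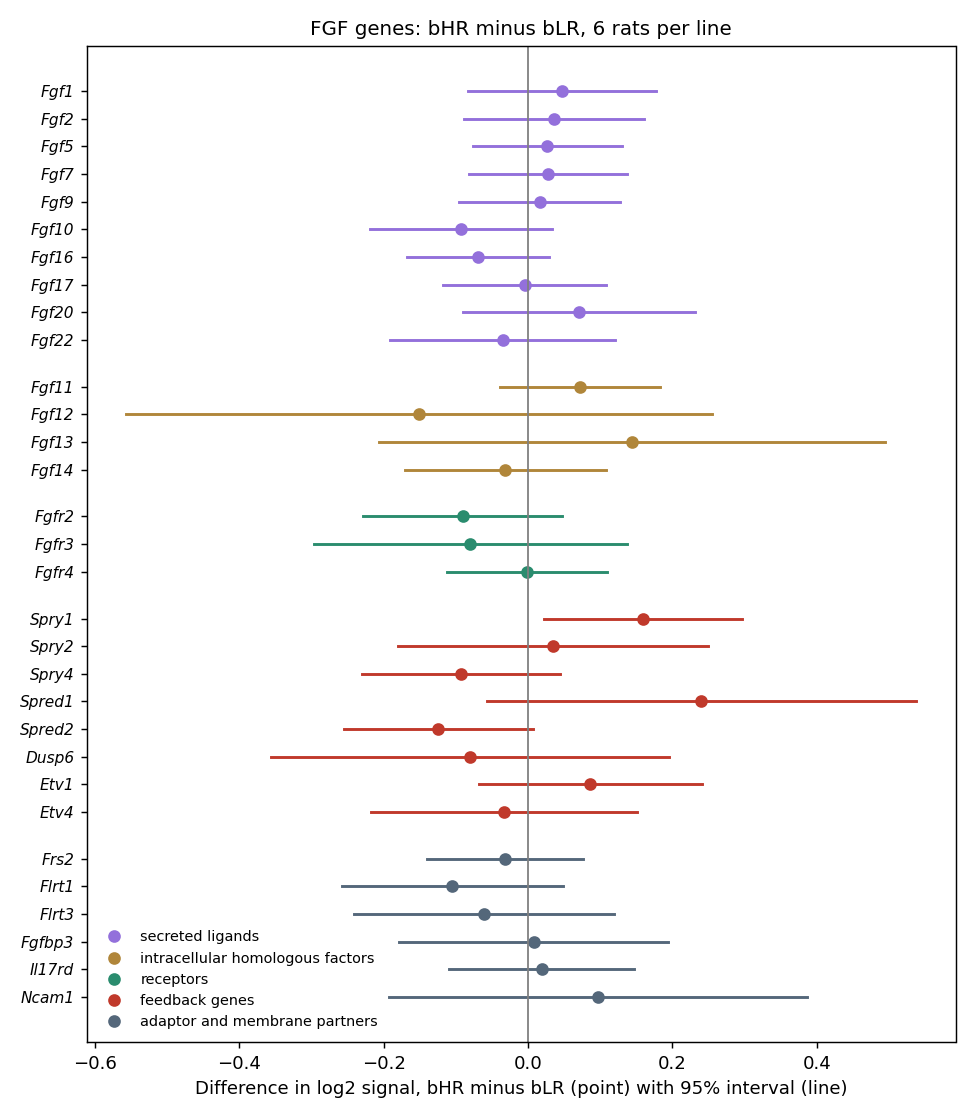
Difference in log2 signal, bHR minus bLR, for the 31 measured FGF genes, grouped and coloured by role; points are limma estimates from 6 rats per line and lines are 95% intervals. The interval of *Spry1* alone leaves out 0, and the widest intervals belong to *Fgf12*, *Fgf13* and *Spred1*.

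Of the 11 secreted ligands listed, 10 were measured, and 1 of these, *Fgf16*, was brighter on average than the median probe in at least 1 line. The other 9 lay in the dim part of the array, and the deposited tables carry no detection p-values. *Fgf2*, the basic fibroblast growth factor, read 6.56 at the lowest, 6.65 at the median and 6.72 at the highest in bHR rats, against 6.46, 6.63 and 6.80 in bLR rats. The bHR range lay inside the bLR range. *Fgf2* averaged 6.65 ± 0.06 in bHR and 6.62 ± 0.12 in bLR (SD, n = 6 each). The difference was 0.04, with a 95% interval of -0.09 to 0.16 (limma adjusted p = 0.953; exact permutation p = 0.526, two-sided). On the signal scale this interval runs from 0.940-fold to 1.12-fold, and it applies to a probe whose signal lay near the median of all probes. In the fits that left out each rat in turn, the *Fgf2* difference ranged from 0.01 to 0.07.

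*Fgf16*, a ligand of the FGF9 subfamily, read 7.97, 8.09 and 8.17 in bHR rats (lowest, median and highest), against 8.12, 8.14 and 8.23 in bLR rats. It averaged 8.09 ± 0.07 in bHR and 8.15 ± 0.04 in bLR (SD, n = 6 each), a difference of -0.07 (limma adjusted p = 0.882). Its lowest bHR values were those of the dim arrays, for which brightness and line cannot be told apart. Those 3 arrays read 7.97 to 8.05, below the 8.12 to 8.23 of the other 9, and within the 9 brighter arrays the difference was -0.01.

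*Fgf10*, a mesenchymal ligand that acts through a splice form of FGFR2, had the largest difference among the ligands, at -0.09. It averaged 6.00 ± 0.07 in bHR and 6.09 ± 0.12 in bLR (SD, n = 6 each; limma adjusted p = 0.868). *Fgf20*, a relative of *Fgf9*, gave 0.07, and *Fgf1*, which binds all FGF receptors, gave 0.05. *Fgf7*, the keratinocyte growth factor, gave 0.03, and *Fgf5*, known for its control of hair growth, also gave 0.03. *Fgf9*, a ligand of neurons and glia, gave 0.02, *Fgf17*, of the FGF8 subfamily, gave -0.0047, and *Fgf22*, a presynaptic organiser in mouse hippocampal CA3, gave -0.04. For each of the 10 ligands the interval included 0, and over the ligands the intervals reached from -0.22 to 0.23. Their median difference was 0.02.

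All 4 intracellular homologous factors were measured. *Fgf12* read 9.36, 10.38 and 10.64 in bHR rats (lowest, median and highest), against 9.86, 10.48 and 10.59 in bLR rats. One rat in each line, bHR rat 47 and bLR rat 46, stood at the bottom. The difference was -0.15, with a 95% interval of -0.56 to 0.25 (limma adjusted p = 0.945), and without each rat in turn it ranged from -0.25 to 0.02, with 0.02 without bHR rat 47. On the 9 brighter arrays *Fgf12* gave -0.42, with an interval of -0.89 to 0.05 (limma adjusted p = 0.872). *Fgf13*, which also binds microtubules, read 10.17, 10.65 and 11.18 in bHR rats, against 10.05, 10.65 and 10.84 in bLR rats. The medians of the lines were alike and the difference was 0.14, with an interval of -0.21 to 0.49 (limma adjusted p = 0.939). Its sign was not stable: *Fgf13* gave -0.08 on the 9 brighter arrays, and 0.04 without bHR rat 27 or 0.24 without bHR rat 47. *Fgf11* gave 0.07 and *Fgf14*, mutated in a human spinocerebellar ataxia, gave -0.03. Both were dimmer than the median probe in each line.

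The spread between rats was much wider for *Fgf12* and *Fgf13* than for most probes. Their pooled SD within a line was 0.39 and 0.33, at percentiles 98.6 and 97.7 of all probes, where the median probe had 0.11 and the median of probes above the median signal had 0.15. For these genes the intervals were wide, and any difference inside them remained compatible with the values of 6 rats per line. The 7 measured sodium channel subunits and scaffold proteins that these factors bind gave 0 genes at an unadjusted p under 0.05, with a median difference of -0.03.

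Of the 4 receptors, 3 were measured, and none differed between the lines by more than the spread between rats. *Fgfr3*, a receptor of astrocytes and progenitors, read 8.23, 8.42 and 8.84 in bHR rats (lowest, median and highest), against 8.33, 8.52 and 8.83 in bLR rats. It averaged 8.45 ± 0.21 in bHR and 8.53 ± 0.18 in bLR (SD, n = 6 each), a difference of -0.08 with an interval of -0.30 to 0.14 (limma adjusted p = 0.945; exact permutation p = 0.494). The highest bHR value was that of rat 27. On the 9 brighter arrays alone the difference was -0.22, with an interval of -0.44 to 0.0003 (limma adjusted p = 0.868), which moves the value by more than 1.5 times without a call.

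*Fgfr2*, a receptor of astrocytes and oligodendrocytes, read 6.78, 6.79 and 7.00 in bHR rats, against 6.79, 6.93 and 7.10 in bLR rats. The lines overlapped over most of their range, and the difference was -0.09 with an interval of -0.23 to 0.05 (limma adjusted p = 0.887; exact permutation p = 0.19). It was -0.03 on the 9 brighter arrays. *Fgfr4*, which is mainly a receptor of liver and muscle, read 6.53, 6.66 and 6.76 in bHR rats, against 6.55, 6.65 and 6.71 in bLR rats. Its difference was -0.0011 with an interval of -0.11 to 0.11 (limma adjusted p = 0.998; exact permutation p = 0.987), at a signal just below the median of all probes.

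**Figure D2:**
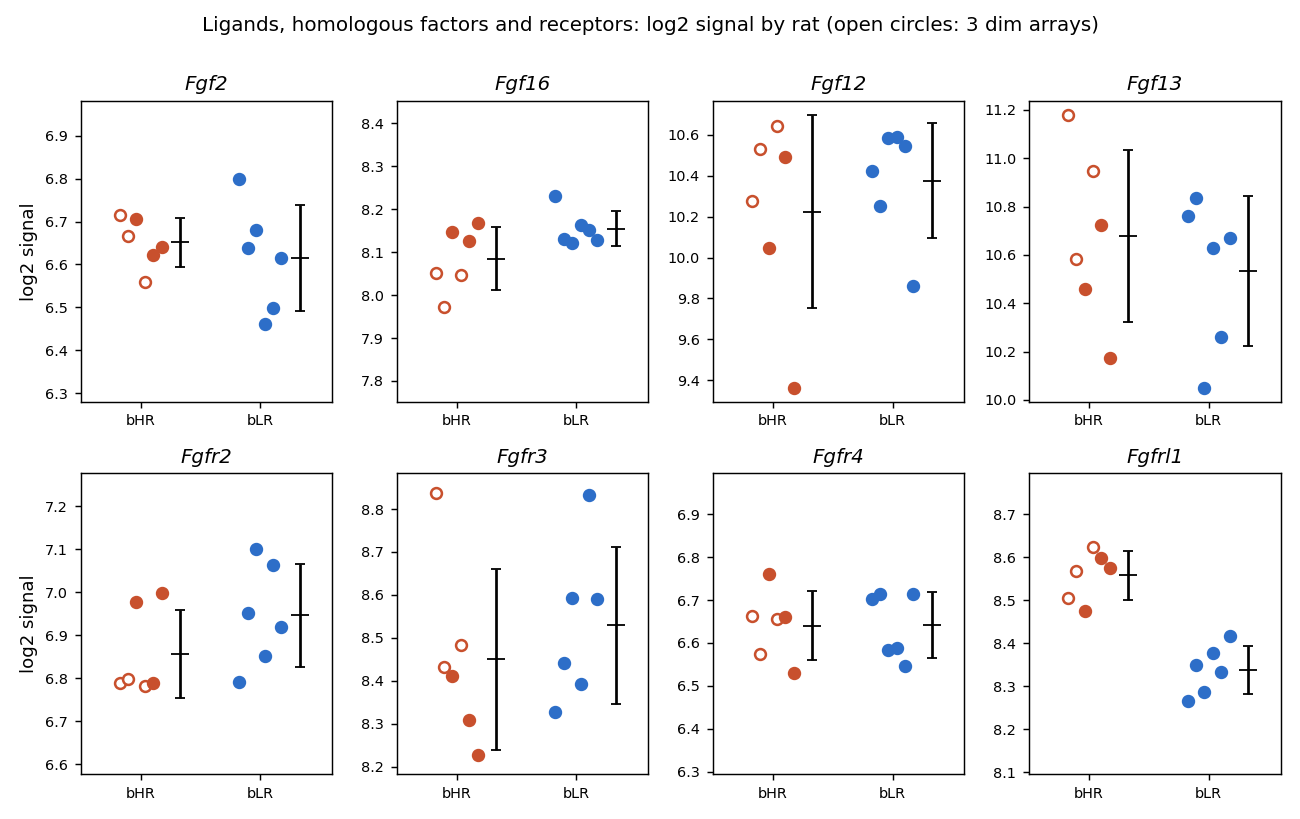
Log2 signal of each rat for *Fgf2*, *Fgf16*, *Fgf12*, *Fgf13*, *Fgfr2*, *Fgfr3*, *Fgfr4* and the receptor-like gene *Fgfrl1*, with bHR at the left and bLR at the right of each panel; black marks are the mean and SD of 6 rats, and open circles are the 3 dim arrays. The lines overlap in every panel except that of *Fgfrl1*, where the bHR rats read 8.48 to 8.63 and the bLR rats 8.27 to 8.42.

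A further receptor gene outside the set showed the clearest separation in the pathway. *Fgfrl1* encodes a receptor-like protein that binds FGF ligands but lacks the kinase domain. It belongs to a list of other FGF family members and cofactors and is named because its unadjusted p was under 0.05. *Fgfrl1* read 8.48, 8.57 and 8.63 in bHR rats (lowest, median and highest), against 8.27, 8.34 and 8.42 in bLR rats. The lines did not overlap, as for 0.391% of all probes, with every bHR rat higher than the highest bLR rat. It averaged 8.56 ± 0.06 in bHR and 8.34 ± 0.06 in bLR (SD, n = 6 each), a difference of 0.22 ± 0.04 (SE) or 1.17-fold. It ranked 39 among the 22523 probes by p, and its limma adjusted p was 0.122, short of the threshold. Its pooled SD within a line was small, at 0.06 or percentile 2 of all probes. With robust estimation and a variance trend its limma adjusted p was 0.542. The exact permutation p was 0.00216, the smallest that 12 rats allow and the value of every probe whose lines do not overlap. Within the 9 brighter arrays the *Fgfrl1* difference also stood at 0.22 (limma adjusted p = 0.462), and without each rat in turn at 0.20 to 0.24. Its sign depended on scaling: the difference was -0.01 with median centring and -0.21 with no scaling, where the median of probes of like signal was -0.24 and -0.44.

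Feedback genes and ERK targets did not differ between the lines in any direction that passed over all probes. Of the 9 listed, 8 were measured, all above the median signal, with 4 higher and 4 lower in bHR and a median difference of 0.0008. The split was 2 higher and 6 lower on the 9 brighter arrays and 1 higher and 7 lower with median centring. *Spry1*, a Sprouty inhibitor of receptor tyrosine kinase signalling, was the 1 member with an unadjusted p under 0.05. It read 6.80, 7.00 and 7.11 in bHR rats (lowest, median and highest), against 6.69, 6.82 and 6.91 in bLR rats. It averaged 6.97 ± 0.14 in bHR and 6.81 ± 0.07 in bLR (SD, n = 6 each), a difference of 0.16 ± 0.06 (SE) or 1.12-fold, with an interval of 0.02 to 0.30 (limma unadjusted p = 0.0256, adjusted p = 0.778; exact permutation p = 0.0455).

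The highest *Spry1* values in bHR were those of the dim arrays, for which brightness and line cannot be told apart. Rats 27, 29 and 39 read 7.07 to 7.11, above all of the other 9 arrays, which read 6.69 to 6.93. The brighter bHR arrays averaged 6.85, close to the bLR mean of 6.81. Among them rat 47 read 6.93, above the highest bLR rat at 6.91. Within the 9 brighter arrays the difference was 0.04, with an interval of -0.10 to 0.18 (limma adjusted p = 0.95). With brightness class as a block it was also 0.04. As all dim arrays were bHR, that fit takes its line difference from the same 9 arrays. Without scaling the difference was -0.10, where the median of all probes was -0.22. A set of 3 dim arrays lying wholly outside the range of the other 9 was seen for 2 of the 31 genes (*Spry1* and *Fgf16*, 6.45%), against 5.28% of all probes.

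*Spry4*, another Sprouty protein, read 6.53, 6.82 and 6.89 in bHR rats, against 6.76, 6.84 and 7.00 in bLR rats. The medians were close, and the difference was -0.09 with an interval of -0.23 to 0.04 (limma adjusted p = 0.884; exact permutation p = 0.197). *Spry4* gave -0.19 on the 9 brighter arrays (limma unadjusted p = 0.0368, adjusted p = 0.847). *Spry2*, the Sprouty gene with the smallest difference of the 3, read 8.10, 8.27 and 8.55 in bHR rats, against 7.95, 8.27 and 8.53 in bLR rats. Its difference was 0.03, with an interval of -0.18 to 0.25 (limma adjusted p = 0.976; exact permutation p = 0.764).

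The Spred proteins bind neurofibromin and restrain RAS. *Spred1* had the largest difference of the set: it read 8.31, 8.69 and 8.85 in bHR rats (lowest, median and highest), against 7.87, 8.38 and 8.72 in bLR rats. The ranges overlapped widely, and the difference was 0.24 with an interval of -0.06 to 0.54 (limma adjusted p = 0.857; exact permutation p = 0.171). It was 0.11 on the 9 brighter arrays and 0.14 without bLR rat 42. With median centring it was -0.01 and with no scaling -0.21, where the medians of probes of like signal were -0.24 and -0.44, so that *Spred1* stood 0.23 above them in both. *Spred2* lay on the other side, at 8.87, 8.98 and 9.17 in bHR rats, against 9.01, 9.12 and 9.22 in bLR rats. Its difference was -0.12 with an interval of -0.25 to 0.01 (limma adjusted p = 0.828; exact permutation p = 0.0693), and within the 9 brighter arrays it was -0.07. The difference of *Spred2* passed an unadjusted 0.05 in 3 of the 12 fits that left out a rat, and that of *Spred1* in 2.

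*Dusp6*, the phosphatase that inactivates ERK, read 11.10, 11.65 and 11.95 in bHR rats, against 11.25, 11.73 and 11.89 in bLR rats. The bLR range lay inside the bHR range. The difference was -0.08 with an interval of -0.36 to 0.20 (limma adjusted p = 0.953; exact permutation p = 0.58). The lowest bHR value was that of rat 47, and the highest that of rat 27. Without bHR rat 47 the *Dusp6* difference was 0.02, and without bLR rat 42 it was -0.17. Among the 9 brighter arrays *Dusp6* gave -0.25, with an interval of -0.57 to 0.06 (limma adjusted p = 0.872).

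Among the ETS-family transcription factors, *Etv1* read 7.33, 7.53 and 7.73 in bHR rats, against 7.24, 7.51 and 7.59 in bLR rats. The difference was 0.09 (interval -0.07 to 0.24, limma adjusted p = 0.91; exact permutation p = 0.281), and it was -0.01 within the 9 brighter arrays. *Etv4* read 7.57, 7.79 and 8.01 in bHR rats, against 7.55, 7.78 and 8.02 in bLR rats. These ranges were nearly the same, and the difference was -0.03 (interval -0.22 to 0.15, limma adjusted p = 0.973; exact permutation p = 0.76).

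**Figure D3:**
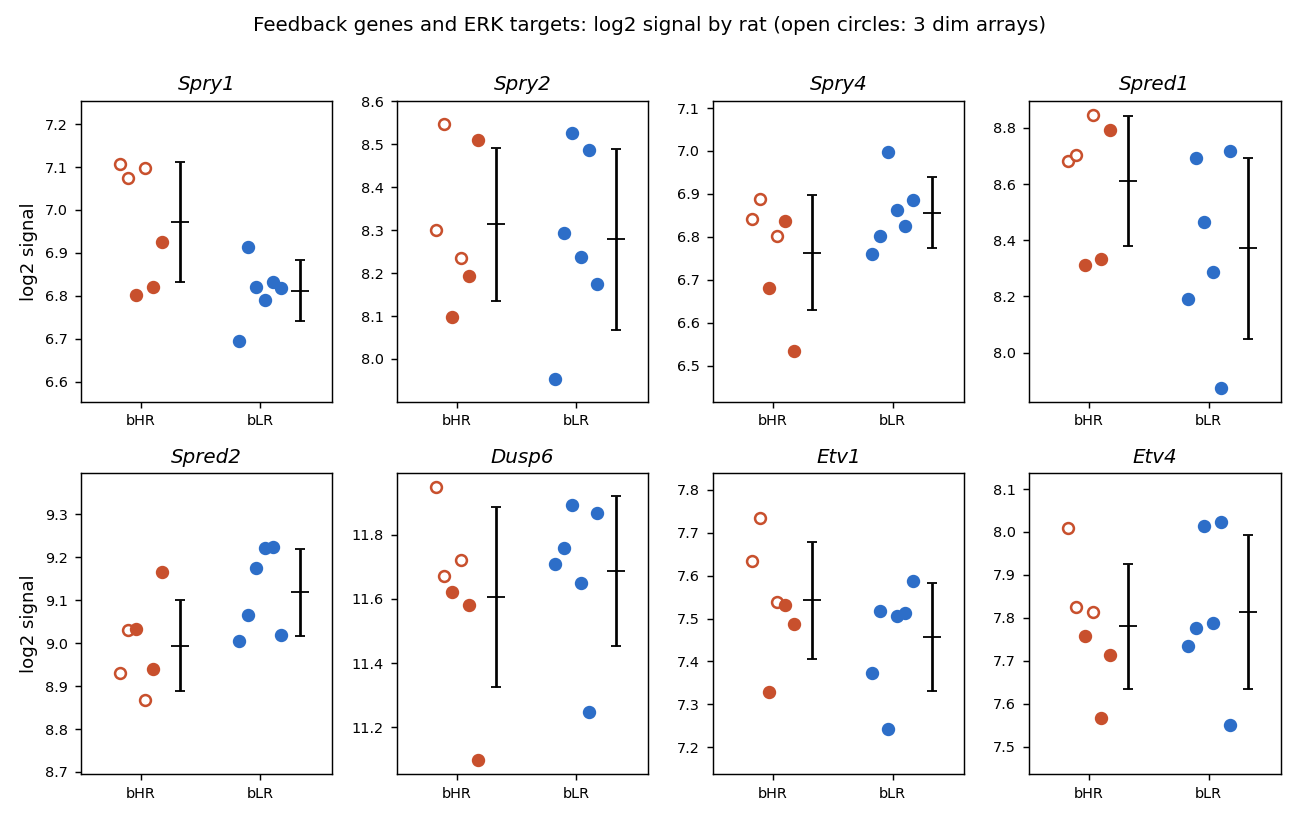
Log2 signal of each rat for the 8 measured feedback genes and ERK targets, with bHR at the left and bLR at the right of each panel; black marks are the mean and SD of 6 rats, and open circles are the 3 dim arrays. For *Spry1* the 3 open circles lie at 7.07 to 7.11, above every filled circle, and in the other panels they fall among the rest or only partly beyond them.

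The 6 adaptor and membrane partners also overlapped between the lines, with 3 higher and 3 lower and a median of -0.01. *Ncam1*, the neural cell adhesion molecule, which can bind and activate FGF receptors, read 9.51, 9.65 and 9.75 in bHR rats (lowest, median and highest), against 9.03, 9.56 and 10.06 in bLR rats. The bHR rats lay within a narrow band inside the bLR range, with an SD of 0.09 in bHR and 0.37 in bLR, and the difference was 0.10 (interval -0.19 to 0.39, limma adjusted p = 0.951). *Flrt1*, a transmembrane protein of the family that promotes FGF signalling, read 6.18, 6.46 and 6.57 in bHR rats, against 6.34, 6.56 and 6.61 in bLR rats. It gave -0.10 over the 12 arrays (limma adjusted p = 0.884) and -0.24 within the 9 brighter arrays (limma unadjusted p = 0.00984, adjusted p = 0.724), at a signal below the median of all probes. There, *Flrt1* and *Spry4* were the 2 members of 31 that were lower with an unadjusted p under 0.05, against 2.65% of all probes. *Flrt3*, of the same family, gave -0.06, *Frs2*, the docking adaptor of the receptors, -0.03, *Il17rd*, a membrane inhibitor of the pathway, 0.02, and *Fgfbp3*, a carrier that releases FGFs from the matrix, 0.01. The genes *Ncam1*, *Flrt1*, *Fgf12*, *Fgf13* and *Fgf16* were chosen for fuller values after their values were seen.

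The wider pathway was covered by 4 lists with 67 measured genes outside the set. In these, 5 genes (7.46%) had an unadjusted p under 0.05, 3 higher and 2 lower in bHR, against 6.02% of all probes, and 0 passed over all probes. The largest difference of the 5 was that of *Shc1*, an adaptor between receptor tyrosine kinases and RAS, followed by *Fgfrl1*. *Shc1* read 6.72, 6.78 and 7.07 in bHR rats (lowest, median and highest), against 6.91, 7.04 and 7.24 in bLR rats. Rat 33 was the only bHR rat inside the bLR range, and the difference was -0.23 ± 0.07 (SE; limma adjusted p = 0.512; exact permutation p = 0.0108). *Shc1* gave -0.17 on the 9 brighter arrays.

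Also among the 5 were *Rps6ka1*, a kinase downstream of ERK, at 0.12 (limma adjusted p = 0.822), and *Sdc1*, a heparan sulfate proteoglycan, at -0.14 (limma adjusted p = 0.794). By list, 3 of 29 genes of the RAS-ERK relay, 1 of 17 heparan sulfate genes, 1 of 14 other FGF family members and cofactors, and 0 of 7 partners of the homologous factors were at an unadjusted p under 0.05. The median differences of these lists were 0.01, -0.00, -0.01 and -0.03. On the reference assembly, *Nudt6* and *Afg2a* are the protein-coding genes between *Fgf2* and *Spry1*, and they gave 0.09 and 0.00, while *Arhgap26*, between *Fgf1* and *Spry4*, gave -0.05. None of these 3 passed (limma adjusted p = 0.918, 0.998 and 0.938).

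The SD between single rats of a line exceeded the difference between the means of the lines for the typical FGF gene. Over the 17 FGF genes above the median signal, the pooled SD within a line ran from 0.06 (*Fgf16*) to 0.39 (*Fgf12*), with a median of 0.16, while the median size of the difference between lines was 0.09. For the 14 dimmer genes the SD ran from 0.07 to 0.14, and the median size of the difference was 0.03. A difference of means is judged by its SE, not by this SD. Over all probes above the median signal the median SD was 0.15 and the median SE of the difference 0.08. For the other probes these were 0.09 and 0.06. Of the 17, bHR rat 27 was highest for 5 (*Fgf13*, *Fgfr3*, *Spry1*, *Dusp6* and *Fgfbp3*) and bLR rat 42 for another 5 (*Spred2*, *Etv4*, *Frs2*, *Flrt3* and *Ncam1*). At the low end, bHR rat 39 was lowest for 5 (*Fgfr2*, *Spred2*, *Frs2*, *Flrt3* and *Fgfbp3*) and bHR rat 47 for 4 (*Fgf12*, *Fgfr3*, *Spry4* and *Dusp6*). The ends thus fell more often on some rats than on others. Over the 31 genes rat 27, the array with the lowest correlation to the others, was highest for 6 and lowest for 0. Rat 42 of bLR was highest for 7 and lowest for 2.

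How the arrays were scaled moved the brighter FGF genes together with other bright probes. Of the 17 genes above the median signal, 7 were higher and 10 lower in bHR as reported, 1 was higher and 16 lower with median centring, and 17 were lower without scaling. Of all probes above that signal, 50.2% were lower as reported, 90.7% with median centring and 99.2% without scaling. On the 9 brighter arrays 3 of the 17 genes were higher and 14 lower, where 49.4% of all probes above that signal were lower. With median centring, an unadjusted p under 0.05 went with lower bHR values for 7 of the 31 genes (*Fgf16*, *Fgf12*, *Fgfr3*, *Spred2*, *Dusp6*, *Etv4* and *Flrt3*), against 17.6% of all probes. All 7 were among the 17 above the median signal. Of all probes above that signal, 34.3% were lower at an unadjusted p under 0.05. *Fgfr3*, for example, gave -0.32 and *Dusp6* -0.42, where the medians of probes of like signal were -0.24 and -0.32. Without scaling 14 of the 31 were lower at an unadjusted p under 0.05, against 43.8% of all probes, and 0 were higher at that limit. At an adjusted p under 0.10 it was 13 of the 31, all lower, against 31.9% of all probes. In both settings 0 FGF genes passed an adjusted p of 0.05, with lowest limma adjusted p of 0.166 and 0.092.

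**Figure D4:**
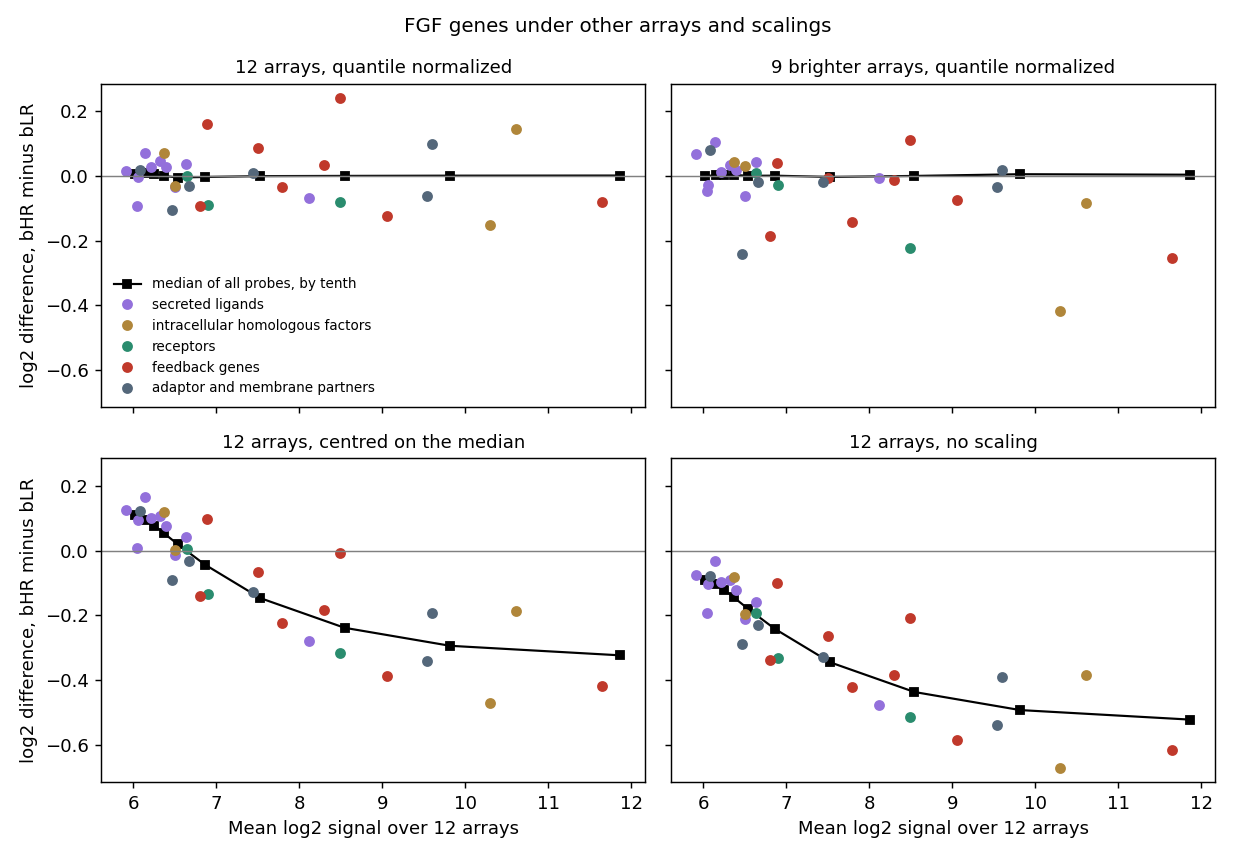
Difference in log2 signal, bHR minus bLR, against the mean log2 signal for the 31 FGF genes (coloured by role) under 4 treatments of the arrays; black squares are the medians of all probes in 10 classes of equal size by signal. With quantile normalisation the black line stays near 0 and the genes scatter round it, and with median centring or no scaling the line falls to -0.32 and -0.52 in the brightest class and the genes follow it.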

How the data were processed

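Per the labels' design text, the authors read average bead signals with limma (version 3.28.21), log2 transformed them and applied quantile normalisation from preprocessCore (version 1.34.0), keeping all arrays. The deposited intensity values are linear and not scaled between arrays; the deposited log2 values are the authors' normalised ones. Whether background was corrected is not stated.

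The deposited intensities were taken to log2 and quantile normalised over 12 arrays and 22523 probes, differing from the authors' log2 values by at most 0.254. Each probe was fitted with limma 3.58.1 in R 4.3.3, with bred line as the only factor; tests were two-sided, with Benjamini-Hochberg adjustment across the whole table, and differences are bHR minus bLR. Exact permutation tests used all 924 assignments of rats. Probes of like signal are those in 1 of 10 classes of equal size, set by each probe's mean over the arrays. The limma step was tested on simulated data. Symbols had their "_predicted" or "_mapped" endings removed and were matched to GRCr8 gene names; lists used a gene's brightest probe.

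Members, lists and dim arrays were chosen with earlier results of these data known. All members with a probe were named; the lowest, median and highest rat were given for receptors, *Fgf2*, feedback genes above the median signal and members with an unadjusted p under 0.05. Pathway genes were named at an unadjusted p under 0.05, except 1 that is not reported here. Alternatives were median centring, no scaling, normexp with an offset of 50, the authors' values, array weights, a filter on dim probes, robust estimation with a variance trend, the 9 brighter arrays, brightness as a block, an adjusted p of 0.10, the mean of a gene's probes and leaving out each rat.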

Additional observations from a re-analysis of the deposited data

Results flagged for a closer look

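Values of single rats were compared with the rest of their line by Dixon's gap criterion for 6 values, over 62 sets (31 genes in each line). About 1 set in 20 is picked out by chance alone, and here 2 were. *Fgf17* read 5.95 in bHR rat 47, against 6.06 in the nearest bHR rat. *Fgf22* read 6.27 in bLR rat 46, against 6.53 in the nearest bLR rat. Both genes were dimmer than the median probe in each line.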

How the results depend on the processing

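No paired analysis was possible because no rat number is shared between the lines. At the 0.05 limit on the adjusted limma p, 0 FGF genes were called under every alternative run. At 0.10 there were 0 as reported, but 13, all lower in bHR, without scaling (chosen after seeing the data), against 31.9% of all probes. The count of FGF genes at an unadjusted p under 0.05, 1 as reported, was 8 with median centring, 14 without scaling, 2 on the 9 brighter arrays, 2 with brightness as a block, and 0 to 3 without each rat. The block fit takes its line differences from the same 9 arrays, as all dim arrays were bHR. The count was 0 without bHR rat 27, 29 or 39, and 3 without bLR rat 46. The unadjusted *Spry1* result held in 8 of 12 such fits and ended without those 3 bHR rats or bLR rat 26. The count over all probes, 20 as reported, was 6 with median centring, 4 without scaling, 6 with brightness as a block and 9 to 24 without each rat. Without scaling, the median difference moved to -0.23 for all FGF genes, -0.11 for ligands, -0.29 for homologous factors, -0.33 for receptors, -0.36 for feedback genes and -0.31 for partners, beside -0.22 over all probes. With median centring it was 0.0865 for ligands, -0.092 for homologous factors (0.02 as reported and -0.03 on the 9 brighter arrays), -0.13 for receptors, -0.16 for feedback genes and -0.11 for partners. The filter on dim probes left only *Fgf16* among ligands (-0.069). Without scaling all 15 higher FGF genes turned lower, as did the median of all probes. Those with an unadjusted p under 0.05 as reported or without scaling were *Spry1* (-0.10), *Spry2* (-0.38), *Etv1* (-0.26) and *Fgfbp3* (-0.33). Among pathway genes, tried after seeing the data, signs turned for *Fgfrl1* (-0.21; -0.014 with median centring) and *Rps6ka1* (-0.16). Each FGF gene had 1 probe, so averaging probes changed no value. Signal near the median of all probes limits *Fgf2*, *Fgf22* and *Fgfr4*, and signal further below it most other ligands.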
